A study of Mus musculus with 6 samples.

Results

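The AP-1 genes and *Atf3* were examined in the RNA of mouse abdominal aortas as 10 genes chosen by symbol, *Fos*, *Fosb*, *Fosl1*, *Fosl2*, *Jun*, *Junb*, *Jund*, *Atf3*, *Maff* and *Batf*, out of the 55426 genes of the deposited table. The control mice (*Myh11*-CreERT2) and the Prdm16SMKO mice (*Prdm16*flox/flox with *Myh11*-CreERT2, the knockout of the labels) were males of the C57BL/6J strain, with 3 mice and 3 libraries per group. The series describes male mice aged 8 to 10 weeks that received tamoxifen at 75 mg/kg/day by gavage on 5 days and were sampled 2 weeks later, without stating separately whether controls were dosed. Cre recombinase is made here from a *Myh11*-CreERT2 cassette on the Y chromosome and acts after tamoxifen. *Myh11* is active in vascular smooth muscle cells (VSMCs). The other cells of the aortic wall thus keep *Prdm16* and contribute RNA to every library. Poly A RNA was read as pairs of 151 bp with 40 M pairs stated as the average, and the deposited unit is TPM, an abundance corrected for transcript length and scaled to one fixed total. The depth of single libraries is unknown.

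AP-1 is a dimeric transcription factor. JUN proteins pair with themselves or with FOS proteins through a leucine zipper, and the adjoining basic region holds the DNA. *Fos*, *Fosb*, *Jun*, *Junb* and *Atf3* are immediate-early genes, silent or low in resting cells and switched on within minutes by growth factors, stretch, injury or stress through MAP kinases and the serum response factor SRF, with short-lived mRNAs. In the artery wall AP-1 is known for its induction in VSMCs by mechanical injury. *Atf3* encodes a stress-induced factor of the ATF/CREB branch, *Batf* a FOS-like partner of JUN proteins best known from lymphocytes, and *Maff* a small MAF protein that lacks a transactivation domain.

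The promoters of the 4 members that had the largest fold changes are shown to let the reader see which regulatory letters they share. The 250 bases before the RefSeq start site are given 5′ to 3′ on the strand of the gene (GRCm38.p6). Capitals mark TGACG, the core of the cyclic AMP response element (CRE), on either strand, and the 8-base element TGACNTCA, the kind of site that ATF, CREB and JUN proteins bind.

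Fos: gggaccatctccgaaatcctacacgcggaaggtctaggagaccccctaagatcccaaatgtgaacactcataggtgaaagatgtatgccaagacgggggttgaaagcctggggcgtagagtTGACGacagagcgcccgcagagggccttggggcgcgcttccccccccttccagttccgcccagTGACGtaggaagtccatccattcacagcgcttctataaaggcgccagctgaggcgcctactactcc

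Fosb: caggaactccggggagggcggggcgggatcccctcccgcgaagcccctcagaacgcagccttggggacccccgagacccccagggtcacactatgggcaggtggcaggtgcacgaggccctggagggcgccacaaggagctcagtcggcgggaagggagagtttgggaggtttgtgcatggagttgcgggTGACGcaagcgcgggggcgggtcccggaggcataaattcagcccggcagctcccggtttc

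Jun: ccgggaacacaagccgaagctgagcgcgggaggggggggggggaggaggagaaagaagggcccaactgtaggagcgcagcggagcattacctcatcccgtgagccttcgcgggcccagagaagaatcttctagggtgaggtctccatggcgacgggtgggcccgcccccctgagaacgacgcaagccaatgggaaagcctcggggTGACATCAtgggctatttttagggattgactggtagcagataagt

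Atf3: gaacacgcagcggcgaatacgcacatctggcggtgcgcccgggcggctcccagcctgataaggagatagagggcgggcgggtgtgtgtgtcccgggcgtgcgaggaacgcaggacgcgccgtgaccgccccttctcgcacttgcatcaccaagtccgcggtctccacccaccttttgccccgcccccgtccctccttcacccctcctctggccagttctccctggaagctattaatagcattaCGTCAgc

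The *Fos* window (chr12:85473640-85473889, plus strand) held TGACG at 129 and at 66 bases before the start, the *Fosb* window (chr7:19310046-19310295, minus strand) held it at 60 bases, and the *Atf3* window (chr1:191183334-191183583, minus strand) held it on the opposite strand at 7 bases, from 1 of its annotated start sites. The *Jun* window (chr4:95052223-95052472, minus strand) held TGACATCA at 45 bases before the start. Of the 10 members, 9 had a promoter in the RefSeq table, and 6 of them held TGACG, which occurs in 17.8% of all 32851 promoter windows of that length. Members were counted if any of their listed windows held the motif, while the percentages are shares of single windows, so the 2 are not like for like. The element TGACNTCA, found before *Jun* and before 2 of the 3 start sites of *Maff*, occurs in 7.49%, and the full CRE TGACGTCA, found before 1 start site of *Maff*, in 1.55%. These motifs overlap, since TGACGTCA is a form of TGACNTCA and holds TGACG on both strands. The AP-1 site TGANTCA (6.75% of windows) and the CArG box bound by SRF (1.47%) were not found in the windows of these 9 genes. Only exact matches within the 250 bases were searched. Sites farther upstream or with other letters would be missed, so the genes cannot be said to lack them. The motifs were chosen after the sequences were seen. *Fosl1* had no entry. The *Jund* window ended at 70697738 of chromosome 8, while the annotated gene starts at 70698949. The bases just before that gene start were therefore not searched.

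The targeted gene came first as a check of the labels. *Prdm16* (ENSMUSG00000039410; chromosome 4 of GRCm38, 154316125 to 154636873) measured 33.4, 36.8 and 30.8 TPM in controls 1, 2 and 3, against 20.8, 27.7 and 14.8 TPM in the knockouts of those numbers, counting all exons, also any outside the deleted stretch. The ranges did not overlap, and the log2 fold change was −0.70 (limma, adjusted p = 0.376). *Jun* lies on the same chromosome, 59.3 Mb away. In the libraries, 45S ribosomal RNA transcripts took 15.6% to 31.4% of the TPM (with 15.7% to 29.9% in Prdm16SMKO) and mitochondrial transcripts 15.8% to 27.4%, and the ranges of the groups overlapped in both. All 10 VSMC markers were expressed in every library, with a summed level of 15900 to 26820 TPM in control and 12320 to 18800 TPM in Prdm16SMKO aortas, so that the tissue matches its label. In whole tissue, fewer cells of a type and less RNA per cell cannot be told apart.

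Of the 10 members, 9 reached the expression minimum, a mean of 0.5 TPM over the 6 libraries. *Atf3* and *Fosb* fell in Prdm16SMKO aortas at an adjusted p-value under 0.05, which makes 2 of 9 members called lower, where 0.171% of all 15775 genes tested were called lower. No member was called higher, against 0.184% of all genes, and 0.355% were called in either direction. Groups did not overlap in 5 members, *Fos*, *Fosb*, *Fosl2*, *Jun* and *Atf3*, each lower in every Prdm16SMKO library than in every control library, where 5.76% of all genes tested were separated in that direction. The same 5 had an unadjusted p under 0.05 (3.85% of all genes in that direction, 4.88% in the other and 8.74% in either). The median log2 fold change of the 9 members was −0.87, beside 0.02 for all genes tested. The median lay between −0.673 and −0.532 in the 6 alternative fits in which *Fosl1* also reached the minimum and all 10 members were tested, the smallest in size being −0.532 without Prdm16SMKO replicate 3. Fold changes are on the scale log2(TPM + 0.5) and come from limma's moderated test with Benjamini-Hochberg adjusted p-values over all 15775 genes. Permuting the 6 libraries exactly gives a two-sided p of 0.1 at the lowest, which the 5 separated members reached. In the names of the deposited columns, the sample numbers of all knockouts come before those of all controls. Times of collection and handling are not given in the sources used here. If handling followed these numbers, its effect on such genes cannot be told apart from that of genotype, and it was not tested.

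**Figure D1:**
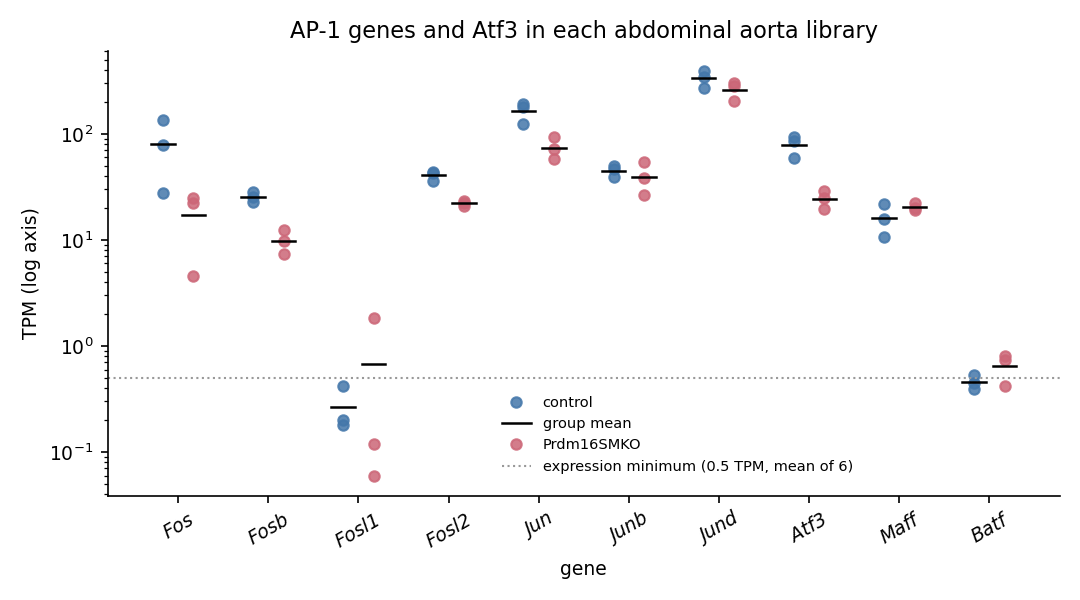
Level of each member in each library, in TPM on a log axis, with control libraries in blue, Prdm16SMKO libraries in red, black bars for the group means (n = 3) and a dotted line at the expression minimum of 0.5 TPM. The red and blue points are separated in *Fos*, *Fosb*, *Fosl2*, *Jun* and *Atf3* and mixed in the other 5 genes.

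Among the FOS genes, *Fos* (ENSMUSG00000021250; chromosome 12, 85473890 to 85477273) measured 134, 78.7 and 27.7 TPM in controls 1, 2 and 3, against 4.57, 22.1 and 24.7 TPM in Prdm16SMKO libraries 1, 2 and 3, the order used for all genes. The lowest control library stood only slightly above the highest knockout library, while the libraries of 1 group differed among themselves by 4.85 times (control) and 5.41 times (Prdm16SMKO). The means were 80.2 ± 53.3 and 17.1 ± 10.96 TPM (SD, n = 3 each), and the log2 fold change of −2.23 had a standard error of 0.69 (limma, adjusted p = 0.357). It did not pass the test. It was the largest fold change of the members with all libraries, while without Prdm16SMKO replicate 1 it was −1.49 and *Atf3*, at −1.68, had the largest. Its spread within groups on the log2 scale, an SD of 1.22, was larger than that of 97.0% of the genes tested, whose median was 0.26. Array weights, a limma option that gives libraries with larger residuals less weight, took it to a log2 fold change of −3.15 with an adjusted p of 0.0262.

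*Fosb* (ENSMUSG00000003545; chromosome 7, 19302696 to 19310051), a paralog of *Fos* whose truncated protein form is long-lived, was at 28.6, 25.3 and 22.8 TPM in control and at 9.86, 12.3 and 7.30 TPM in Prdm16SMKO libraries. Every knockout library lay well below every control library, and libraries differed by 1.25 times within control and by 1.68 times within Prdm16SMKO. Its mean fell from 25.6 ± 2.91 TPM in control to 9.81 ± 2.49 TPM (SD, n = 3 each). On the log2 scale the difference was −1.36 (standard error 0.21; 95% interval −1.83 to −0.89; limma, adjusted p = 0.0414). Leaving out any 1 library took the adjusted p over the threshold, to between 0.0517 and 0.179, with log2 fold changes from −1.53 to −1.17, and so did no expression minimum (0.138), no variance trend (0.101) and a replicate block (0.148).

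*Fosl2* (ENSMUSG00000029135; chromosome 5, 32135801 to 32157842) encodes FRA2, a FOS protein without the strong transactivation domain of *Fos*. It was at 36.2, 43.7 and 43.0 TPM in control and at 22.5, 23.3 and 20.7 TPM in Prdm16SMKO libraries. The knockout libraries differed by 1.12 times at most and the groups were clearly apart, with a within-group SD smaller than in all but 5.22% of the genes tested. The log2 fold change was −0.87 (95% interval −1.21 to −0.53; limma, adjusted p = 0.062). It passed the threshold with a minimum mean of 2 TPM (0.0432), median-of-ratios scaling (0.0409), quantile normalization (0.0441), robust variances (0.038), array weights (0.0171) and TPM rescaled without mitochondrial and 45S transcripts (0.0362). It stayed over the threshold in the other 11 alternatives, with 0.126 for no expression minimum, 0.135 for no variance trend, 0.176 for a replicate block and 0.128 to 0.179 with 1 library left out.

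*Fosl1* (ENSMUSG00000024912; chromosome 19, 5447547 to 5455946) encodes FRA1. It was low, at 0.18, 0.42 and 0.20 TPM in control and 0.12, 1.84 and 0.06 TPM in Prdm16SMKO libraries. Prdm16SMKO replicate 2 alone was above 1 TPM, the groups overlapped, and the gene stayed below the expression minimum and was not tested.

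The JUN genes were the more abundant partners. *Jun* (ENSMUSG00000052684; chromosome 4, 95049034 to 95052222), a gene of 1 exon, was at 193, 180 and 123 TPM in control and at 57.7, 93.2 and 72.3 TPM in Prdm16SMKO libraries. The groups did not overlap, and the means were 165 ± 37.6 and 74.4 ± 17.9 TPM (SD, n = 3 each). The log2 fold change was −1.15 (standard error 0.23; 95% interval −1.67 to −0.62; limma, adjusted p = 0.0983), and the gene passed the threshold with array weights (0.00816). The study's supplement lists *Jun* among its own downregulated genes, from an analysis in R whose test is not named.

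*Junb* (ENSMUSG00000052837; chromosome 8, 84974484 to 84978718), the serum-inducible family member that often restrains *Jun*, was at 49.5, 38.9 and 46.6 TPM in control and at 26.6, 53.8 and 38.0 TPM in Prdm16SMKO libraries. Prdm16SMKO replicate 2 held the highest value of all 6 libraries and replicate 1 the lowest. The log2 fold change was −0.24 (95% interval −0.80 to 0.32; limma, adjusted p = 0.906), and it turned to 0.01 without Prdm16SMKO replicate 1.

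*Jund* (ENSMUSG00000071076; chromosome 8, 70698949 to 70700616), the family member that is made steadily in resting cells, was at 347, 392 and 269 TPM in control and at 280, 299 and 206 TPM in Prdm16SMKO libraries. The groups overlapped, and the log2 fold change was −0.36 (95% interval −0.82 to 0.10; limma, adjusted p = 0.722). The intervals of *Junb* and *Jund* leave room both for no change and for a fall of 0.80 on the log2 scale.

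*Atf3* (ENSMUSG00000026628; chromosome 1, 191170296 to 191218039) gave the smallest limma p of the 9 tested members. It was at 92.7, 85.6 and 58.9 TPM in control and at 25.1, 28.9 and 19.7 TPM in Prdm16SMKO libraries. The lowest control library was above the highest knockout library by a wide margin. The gene fell from 79.1 ± 17.8 to 24.6 ± 4.65 TPM (SD, n = 3 each), so that control aortas held 3.22 times the mean level of Prdm16SMKO aortas, with a log2 fold change of −1.66 (standard error 0.22; 95% interval −2.15 to −1.16; limma, adjusted p = 0.0239). It kept an adjusted p under 0.05 in 12 of the 17 alternative fits. It was over the threshold without control replicate 1 (0.096) or 2 (0.120), with no expression minimum (0.111) and with no variance trend (0.068) or a replicate block (0.0701), and its log2 fold change stayed between −1.85 and −1.51.

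*Maff* (ENSMUSG00000042622; chromosome 15, 79346621 to 79359076) was at 10.7, 15.9 and 21.97 TPM in control and at 19.2, 22.2 and 20.1 TPM in Prdm16SMKO libraries. Control replicate 3, the control library lowest in *Fos*, *Fosb*, *Jun*, *Jund* and *Atf3*, was the highest control library here. The log2 fold change was 0.38 (95% interval −0.17 to 0.94; limma, adjusted p = 0.783), and it was 0.13 without control replicate 1, 0.63 without control replicate 3 and 0.84 with array weights. *Batf* (ENSMUSG00000034266; chromosome 12, 85686669 to 85709087), which lies 209.4 kb from *Fos*, was at 0.53, 0.39 and 0.45 TPM in control and 0.80, 0.42 and 0.73 TPM in Prdm16SMKO libraries. Its levels were close to the expression minimum in all 6 libraries, and the log2 fold change of 0.25 had a 95% interval of −0.52 to 1.02 (limma, adjusted p = 0.934). Genes annotated on the opposite strand overlap *Jun* (*Junos*), *Junb* (*Prdx2*), *Jund* (*Gm11175*), *Fosl1* (*Ccdc85b*) and *Atf3* (*Gm24748*), and reads from such pairs cannot be told apart where counting ignores the strand, which is not given in the sources used here.

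**Figure D2:**
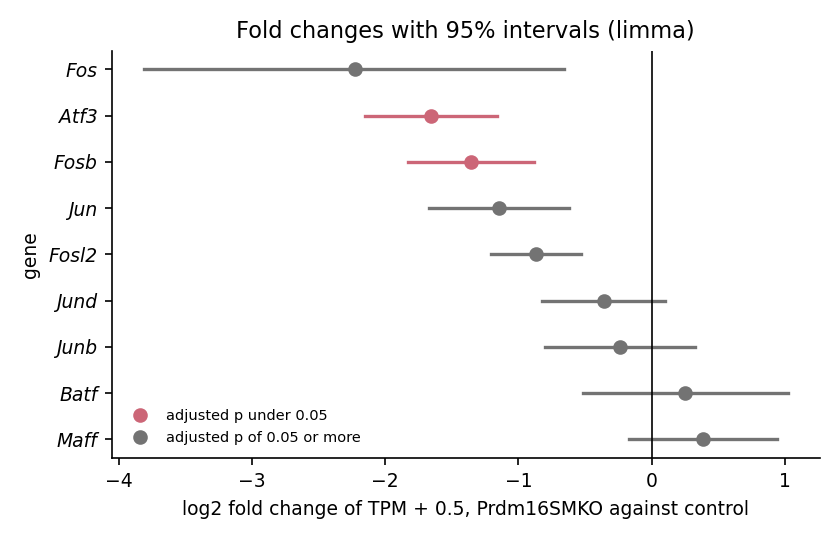
Log2 fold change of TPM + 0.5 between Prdm16SMKO and control libraries for the 9 tested members, with 95% intervals from limma (n = 3 per group) and red for an adjusted p under 0.05. The intervals of *Fos*, *Atf3*, *Fosb*, *Jun* and *Fosl2* lie below 0, that of *Fos* being the widest (−3.81 to −0.66), and those of *Jund*, *Junb*, *Batf* and *Maff* include 0.

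The order of the mean levels differed between the groups in its middle part. In control aortas *Jund* (336 TPM) stood first, above *Jun* (165 TPM), *Fos* (80.2 TPM), *Atf3* (79.1 TPM), *Junb* (45.02 TPM), *Fosl2* (41.0 TPM), *Fosb* (25.6 TPM) and *Maff* (16.2 TPM), with *Batf* and *Fosl1* below 1 TPM. The ranges of the neighbours *Jun* and *Fos*, *Fos* and *Atf3*, *Junb* and *Fosl2*, and *Batf* and *Fosl1* overlapped, while those of the other neighbours did not. In Prdm16SMKO aortas *Jund* (262 TPM) and *Jun* (74.4 TPM) kept the first places, *Junb* (39.4 TPM) took the third, and *Atf3*, *Fosl2*, *Maff* and *Fos* followed at 24.6, 22.2, 20.5 and 17.1 TPM with ranges that overlapped from each to the next. By mean, *Fos* was at place 3 in control and at place 7 in Prdm16SMKO aortas. Its range overlapped those of its neighbours in both orders, and its fold change did not pass the test.

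Summed over the family, FOS mRNA was at 199, 148 and 93.7 TPM in control and at 37.0, 59.5 and 52.8 TPM in Prdm16SMKO libraries. *Fos* itself made up 67.4%, 53.1% and 29.5% of that sum in control replicates 1, 2 and 3, and 12.3%, 37.1% and 46.9% in Prdm16SMKO replicates 1, 2 and 3, so that its share overlapped between the groups. JUN mRNA summed to 590, 611 and 438 TPM in control and to 365, 446 and 316 TPM in Prdm16SMKO libraries, where the highest knockout library exceeded the lowest control library. *Jun* took 28.0% to 32.7% of the JUN sum in control and 15.8% to 22.9% in Prdm16SMKO libraries, and *Jund* took 58.9% to 64.1% and 65.1% to 76.9%. JUN mRNA exceeded FOS mRNA by 2.96 to 4.67 times in control and by 5.99 to 9.85 times in Prdm16SMKO libraries. These sums and shares follow from the single genes and were given no test.

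**Figure D3:**
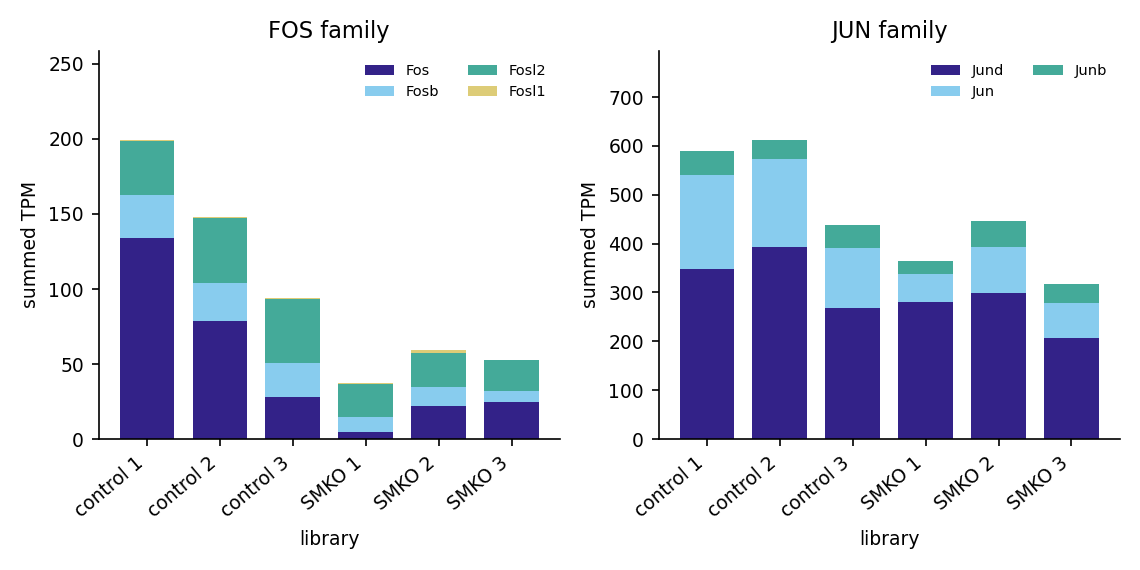
Summed TPM of the FOS genes (left) and of the JUN genes (right) in each of the 6 libraries, stacked by gene, with separate vertical scales that start at 0. The FOS sum is at most 59.5 TPM in the Prdm16SMKO libraries and at least 93.7 TPM in the controls, and *Jund* is the largest part of every JUN bar.

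The genes with the most similar pattern over the 6 libraries were looked up for *Fos*, *Fosb*, *Jun* and *Atf3*, by the root mean square difference of log2(TPM + 0.5) after each gene was centred on its mean, among 9668 other genes whose mean reached 5 TPM. Such a measure takes in the difference between the groups as well as the order within them. *Fosb* and *Atf3* were within each other's nearest 5 genes (difference 0.20) and were the closest pair of the 9 tested members. *Jun* was nearest to *Btg2*, an antiproliferative early response gene (0.11), followed by *Rasl11a* (0.13), *Cd276* (0.17) and *Egr1*, a zinc finger immediate-early gene (0.18). *Fosb* was nearest to *Zfp991* (0.11), *Gm830* (0.13), *Cd276* (0.19), the heat shock chaperone gene *Hspa1a* (0.19) and *Atf3*. *Atf3* was nearest to *Fblim1*, which encodes a filamin-binding adhesion protein (0.12), *Zfp991* (0.19), the elastin gene *Eln* (0.19), *Igsf9* (0.19) and *Fosb*. For *Fos* even the nearest genes were farther off, *Ccn1*, which encodes a matricellular protein (0.59), *Gm7887* (0.73), the MAP kinase phosphatase gene *Dusp1* (0.82) and *Jun* (0.93).

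The other immediate-early genes were taken from a list of 44, of which 43 were tested. At an adjusted p under 0.05, 5 of them were lower and 0 higher (limma), where 0.171% and 0.184% of all genes were called. At an unadjusted p under 0.05, 20 were lower and 2 higher, beside 3.85% and 4.88% of all genes. The groups were separated with the knockout lower in 17 of the 43 and higher in 2, beside 5.76% and 7.02% of all genes. The list's median log2 fold change was −0.42. *Nr4a1*, an orphan nuclear receptor gene, was at 131, 130 and 187 TPM in control and at 19.8, 26.2 and 36.3 TPM in Prdm16SMKO libraries, a log2 fold change of −2.45 (limma, adjusted p = 0.00762). It kept an adjusted p under 0.05 without any 1 library other than control replicate 2 (0.0741). *Arc*, an activity-regulated gene known from neurons, fell by 2.0 on the log2 scale, *Ptgs2*, which encodes the inducible cyclooxygenase, by 1.41, the nuclear receptor gene *Nr4a2* by 1.40 and the zinc finger gene *Egr3* by 1.29 (limma, adjusted p = 0.0164, 0.0468, 0.0386 and 0.0392). *Arc* was over the threshold without control replicate 1, 2 or 3 (0.0655, 0.114 and 0.0991), and the other 3 genes without any 1 library.

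The kinases and factors that switch on FOS and JUN genes were listed next. Of 39 MAP kinase and SRF pathway genes 38 were tested, with 24 higher and 14 lower estimates, 0 called (limma; 0.355% of all genes were called, so that a count of 0 in a list of this size is near the background) and 0 at an unadjusted p under 0.05 (8.74% of all genes), and a median log2 fold change of 0.07. *Srf*, with the smallest p of the list, was at 67.7, 88.8 and 60.7 TPM in control and at 60.4, 59.6 and 47.7 TPM in Prdm16SMKO libraries (log2 fold change −0.36, 95% interval −0.78 to 0.06). The ERK1 gene *Mapk3* had a log2 fold change of 0.28 and *Nras* one of 0.23, both with intervals that include 0.

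Among 35 other bZIP genes, possible dimer partners, all 35 were tested and 0 were called, beside 0.355% of all genes (limma; 3 higher and 3 lower at an unadjusted p under 0.05, beside 4.88% and 3.85%), with a median of 0.11. The groups were separated with the knockout higher in 6 and lower in 3 of the 35, beside 7.02% and 5.76% of all genes. The smallest p belonged to *Hlf* (log2 fold change 1.31, adjusted p = 0.128), *Nfil3* (−0.85, adjusted p = 0.174) and *Creb3l1* (−0.64, adjusted p = 0.295), of which *Hlf* and *Nfil3* are known as outputs of the circadian clock. *Hlf* was at 19.3, 13.1 and 8.03 TPM in control and at 30.4, 36.9 and 29.5 TPM in Prdm16SMKO libraries. With array weights 1 gene of this list was called, as higher. In that fit 494 of all 15775 genes were called, so that 1 in a list of this size is near the background.

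Of 25 textbook AP-1 target genes 17 were tested and 0 were called, beside 0.355% of all genes (limma; 2 higher and 2 lower at an unadjusted p under 0.05, beside 4.88% and 3.85%), with a median of 0.06. The groups were separated in 4 of them, 2 in each direction, beside 5.76% of all genes separated with the knockout lower and 7.02% with it higher. The gap junction gene *Gja1* was at 115, 124 and 99.3 TPM in control and at 69.6, 67.9 and 58.8 TPM in Prdm16SMKO libraries (log2 fold change −0.78, adjusted p = 0.092). *Cd44*, a hyaluronan receptor gene, was at 11.4, 19.0 and 12.7 TPM in control and at 29.3, 26.9 and 24.2 TPM in Prdm16SMKO libraries (log2 fold change 0.91, adjusted p = 0.161), and *Ccnd1*, which encodes cyclin D1, had a log2 fold change of 0.63 (adjusted p = 0.517).

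Stress genes were examined as heat shock genes and genes of the integrated stress response. Of 13 heat shock genes 11 had lower estimates, with a median log2 fold change of −0.46, and 0 were called, beside 0.355% of all genes (limma; 7 lower and 0 higher at an unadjusted p under 0.05, beside 3.85% and 4.88%). The groups were separated in 7, each lower in Prdm16SMKO aortas, where 5.76% of all genes were separated in that direction. *Hspa1a*, the inducible HSP70 gene, was at 546, 494 and 446 TPM in control and at 209, 220 and 105 TPM in Prdm16SMKO libraries (log2 fold change −1.54, adjusted p = 0.0648), and its near-identical copy *Hspa1b* can share its reads. *Dnajb1* and *Hsph1* had log2 fold changes of −1.26 and −1.13 (adjusted p = 0.0553 and 0.0696). Of 16 genes of the integrated stress response, the pathway by which ATF4 raises *Atf3*, 15 were tested and 0 called, beside 0.355% of all genes (limma; 2 higher and 3 lower at an unadjusted p under 0.05, beside 4.88% and 3.85%), with a median of −0.05. The knockout was separated as higher in 2 and as lower in 3 of the 15, beside 7.02% and 5.76% of all genes. *Atf4* itself had a log2 fold change of −0.34 (95% interval −0.68 to −0.01, adjusted p = 0.556), *Ppp1r15a* one of −0.65 (adjusted p = 0.271) and *Mthfd2* one of −0.56 (adjusted p = 0.554).

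**Figure D4:**
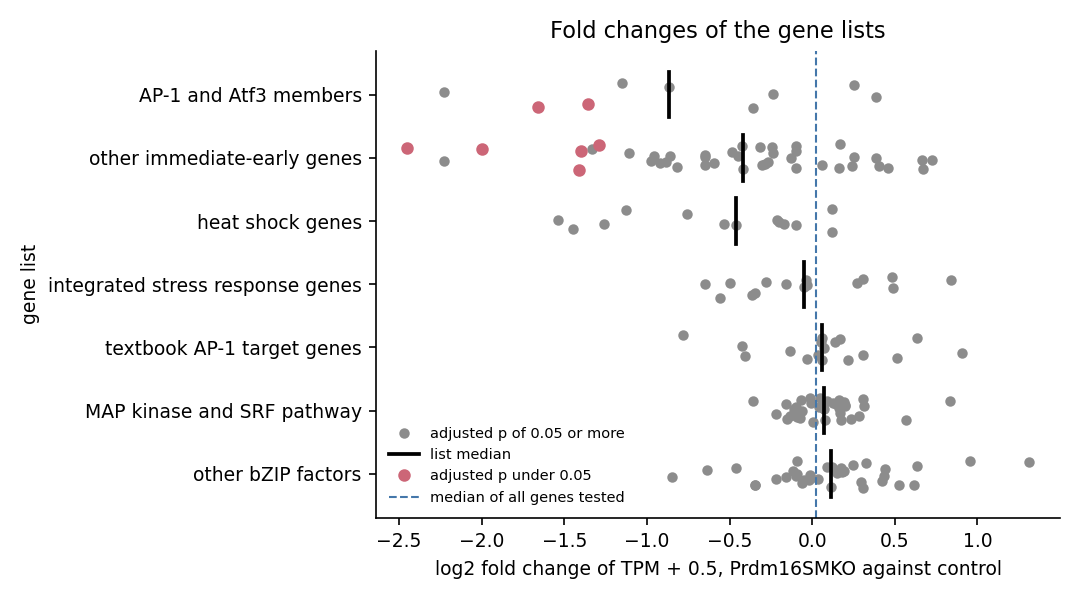
Log2 fold change of every tested gene of the AP-1 and *Atf3* group and of 6 related lists, 1 point per gene, with red for an adjusted p under 0.05, a black bar for each list's median and a dashed line for the median of all genes tested (0.02). The medians of the AP-1 and *Atf3* group (−0.87), the heat shock genes (−0.46) and the other immediate-early genes (−0.42) lie to the left of the dashed line and those of the other 4 lists within 0.1 of it.

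Markers of the cell types of the aorta and of adjoining tissue were read as lists, with log2 fold changes for the genes of smallest p. Of the 10 VSMC markers 8 had lower and 2 higher estimates, with a median of −0.39 (limma; 3 lower and 1 higher at an unadjusted p under 0.05, against 3.85% and 4.88% of all genes), and *Itga8* was at −0.59, *Smtn* at −0.53 and *Des* at 0.51. The summed level of 11 macrophage markers was 83.2 to 130.4 TPM in control and 130.8 to 240.3 TPM in Prdm16SMKO libraries, with 10 of 11 estimates higher, a median of 0.71, 0 called (limma; 6 higher and 0 lower at an unadjusted p under 0.05, where 4.88% of all genes were higher) and *C1qb* (log2 fold change 0.78), *C1qa* (0.80) and *Lyz2* (0.80) leading. Fibroblast markers summed to 1226 to 1480 TPM and 1167 to 2089 TPM, with 8 of 10 estimates higher (median 0.21) and *Col14a1* at a log2 fold change of 0.89, *Dpt* at 0.52 and *Ly6a* at 0.34. Endothelial markers summed to 324 to 397 TPM and 340 to 563 TPM, with 7 of 10 estimates higher (median 0.33) and *Cldn5* at −0.54, *Erg* at −0.50 and *Vwf* at 0.90. Prdm16SMKO replicate 1 stood apart in neuron and Schwann cell markers (815 TPM, against 53.3 to 272 TPM in the 5 other libraries; 11 of 11 estimates higher, median 0.95; *Uchl1* and *Mbp* at 0.95 and 0.97) and in skeletal muscle markers (92.2 TPM, against 3.33 to 16.0 TPM; 6 of 8 estimates higher, median 0.74; *Tnnt3* at 0.49 and *Ckm* at −0.02), and Prdm16SMKO replicate 3 in adipocyte markers (4466 TPM, against 901 to 1859 TPM; 7 of 10 estimates higher, 3 lower, median 0.83; *Retn*, *Plin1* and *Cfd* at 0.99, 1.13 and 0.84). T and B cell markers summed to 3.89 to 13.1 TPM and 11.7 to 16.8 TPM, with 4 of 4 tested estimates higher (median 0.82) and *Ighm* at 0.60. None of the genes of these 8 lists was called, and the part of these cells in the AP-1 results was not tested. Without Prdm16SMKO replicate 1 the log2 fold changes of *Fos*, *Fosb*, *Jun* and *Atf3* were −1.49, −1.38, −0.98 and −1.68, and without Prdm16SMKO replicate 3 they were −2.65, −1.17, −1.14 and −1.51, while the number of members called was 1, *Atf3*, in both.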

How the data were processed

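Poly A RNA of 6 abdominal aortas was sequenced by the authors, and the deposited values are TPM for 55426 genes, scaled by the authors to the same total in each library and rounded to 2 decimals. Per the submitters' processing notes, the tools were bcl2fastq, cutadapt 2.3, FastQC 0.11.8, STAR 2.7.8a, RSEM 1.3.3 and MultiQC 1.7 with the build GRCm38. The annotation and filters are not given in the sources used here. TPM values keep no record of read numbers, so no counting error could be computed.

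Columns were joined to mice by the names in the labels, and 0 pairs of libraries were identical. Values were transformed to log2(TPM + 0.5) after 15775 genes with mean TPM of 0.5 or more had been selected. Groups were compared with limma 3.58.1 in R 4.3.3 (linear model, variance trend, equal weights, two-sided, Benjamini-Hochberg adjustment over all genes tested, threshold 0.05), a fit also tested on simulated data. With a simulated log2 change of 1 in size, the fit called 55 of 200 changed genes, and with 2 it called 189 of 200. A gene that was not called is therefore not shown to be unchanged. Single genes were given an exact permutation test. Each library is 1 of the 3 mice per group that the study gives. Tables were made with Python 3.11.15, pandas 2.3.3 and scipy 1.17.1. Gene positions are from GENCODE M21 on GRCm38, promoters from RefSeq on GRCm38.p6.

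The members and the 6 related lists and 8 marker lists were chosen with earlier results of these data known, and were written from general knowledge. *Ppp1r15a*, *Atf4*, *Atf5* and *Ddit3* stand in more than 1 list. All members are named, and of every other list the called genes and the 3 with the smallest p among those averaging 5 TPM or more, and the 5 genes most similar to each of 4 members. Some genes that meet this rule are not reported here. *Hspa1b* and the lists' overlapping antisense genes are named outside this rule. The 17 alternatives were other pseudocounts (0.1 and 1), expression minimums, scalings and variance models, array weights, a replicate block, and each library left out in turn.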

Additional observations from a re-analysis of the deposited data

How the results depend on the processing

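The number of AP-1 and *Atf3* members called, 2 as reported, was 2 or 3 with either other pseudocount, a minimum mean of 2 TPM, the 3 other scalings and robust variances, 5 with array weights, and 0 with no expression minimum, no variance trend or a replicate block. With 1 library left out it was 0 to 1. Of the 9 tested members, *Junb* alone changed direction, with log2 fold changes of −0.489 to 0.0131 when 1 library was left out, the highest without Prdm16SMKO replicate 1. The other immediate-early genes called, 5 as reported, numbered 13 with array weights (11 lower, 2 higher) and 3 without mitochondrial and 45S transcripts. They numbered 2 with no variance trend, 1 with the replicate block, 0 with no expression minimum, and 0 to 3 with 1 library left out. Heat shock genes called, 0 as reported, numbered 3 with a minimum mean of 2 TPM, robust variances or array weights, 1 with a pseudocount of 0.1, median-of-ratios scaling or without mitochondrial and 45S transcripts, and 0 to 1 with 1 library left out. Textbook AP-1 targets called, 0 as reported, numbered 1 with each of the 3 other scalings (*Gja1*, lower). With array weights the targets called numbered 3 (*Gja1* lower, *Ccnd1* and *Cd44* higher), and the other bZIP genes called numbered 1 (higher). In that fit 494 of all 15775 genes were called, so that the bZIP count is near the background.

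Over all genes, 56 calls as reported (29 higher, 27 lower) became 494 with array weights, 153 with median-of-ratios scaling (61 higher, 92 lower), 129 with quantile normalization (46 higher, 83 lower), 123 without mitochondrial and 45S transcripts, 112 with robust variances, 33 with no variance trend, 10 with no expression minimum, 4 with the replicate block, and 5 to 61 with 1 library left out. The skeletal muscle genes *Ckm* (−0.02 as reported, 0.0487 with a pseudocount of 1, 0.0148 with array weights, −1.1 to 0.693 with 1 library left out) and *Tnnt3* (0.49 as reported, −0.0647 with array weights, −0.836 to 1.39 with 1 library left out) changed sign. The cause of these changes was not tested. Libraries with the same replicate number did not deviate together (correlations of −0.13, −0.11 and 0.02, with 0 of 6 libraries closest to their own number), so the numbers were not taken to pair the mice. The unknown read depth limits what can be said of *Fosl1* and *Batf*, which lie near or below the expression minimum.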
